A study of Homo sapiens with 6 samples.

Results

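NAT10, its partner THUMPD1 and the core protein genes of the small nucleolar ribonucleoproteins (snoRNPs) were followed by name in NAT10 RIP-seq and acRIP-seq data of colorectal cancer (CRC) cells. The 9 genes were taken from the 58302 genes of the RIP-seq table by their symbols, and each had 1 row. They were NAT10, THUMPD1, the box C/D core genes FBL, NOP56 and NOP58, and the box H/ACA core genes DKC1, NHP2, NOP10 and GAR1.

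SW480 and DLD-1, both established epithelial lines from colorectal tumours, were used as wild type (WT) cells with no treatment. By the sample labels, each line had 1 library of total RNA (Input) and 1 of RNA precipitated with a NAT10 antibody (RIP). Each also had 1 of fragmented RNA precipitated with an antibody against N4-acetylcytidine, ac4C (acRIP), and there were no replicates. Every difference is therefore one between libraries and has no p-value. The comparisons ask how much of each transcript was in the NAT10 precipitate, and where its ac4C peaks lay.

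NAT10 is the acetyltransferase that writes ac4C on rRNA, tRNA and mRNA, and THUMPD1 is a tRNA-binding adaptor that it needs for its tRNA sites. Box C/D snoRNPs carry guide RNAs that direct 2′-O-methylation of rRNA, and box H/ACA snoRNPs carry those that direct pseudouridylation. Particular box C/D snoRNAs also guide NAT10 to its rRNA sites, and the box H/ACA core proteins are part of telomerase as well. FBL is the methyltransferase and NOP56 and NOP58 are the scaffold proteins of the box C/D particle. DKC1 is the pseudouridine synthase of the box H/ACA particle, and NHP2, NOP10 and GAR1 are its companions.

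The labels of RIP and Input did not pair by line. Over 16278 protein-coding genes the Pearson r of log levels was 0.945 between RIP SW480 and Input DLD-1, against 0.872 between RIP SW480 and Input SW480. It was 0.951 between RIP DLD-1 and Input SW480, against 0.857 between RIP DLD-1 and Input DLD-1. The epithelial marker EPCAM, a surface adhesion protein, had 95.05 FPKM in RIP SW480, 324 in Input SW480, 306 in RIP DLD-1 and 127 in Input DLD-1. Of 7 epithelial markers 6 reached 1 FPKM in both Inputs, and their summed level was 1396, 3342, 2896 and 1703 FPKM in the same order. All 6 markers of blood, endothelial, stromal and liver cells were below 1 FPKM in these 4 libraries, with CD3E, COL3A1 and ALB at 0. Reads solved from the FPKM steps summed to at least 26435264 in RIP SW480 and 21968355 in RIP DLD-1, and to at least 12013741 and 11230573 in the Inputs. Libraries are named by their labels below, each RIP library is set against the Input of its own and of the other label, and a direction given for a line rests on these labels.

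All 9 genes were well detected. FPKM, fragments scaled to transcript length and library size, allows levels of different genes to be set side by side. Each level is over all cells of a culture, so the number of cells with a transcript and the RNA per cell cannot be told apart. NAT10, on chr11:34105629-34146908 of GRCh38 by RefSeq, had 20.8 FPKM in RIP SW480, 21.2 in Input SW480, 14.3 in RIP DLD-1 and 23.0 in Input DLD-1. These rested on at least 2465, 1240, 1441 and 1244 reads. Thus the RIP DLD-1 value was the lowest of the 4, and the other values lay close together.

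THUMPD1, on chr16:20733664-20741818, had 16.3 FPKM in RIP SW480, 10.0 in Input SW480, 17.9 in RIP DLD-1 and 6.02 in Input DLD-1. Both RIP libraries were above both Inputs. ACSM3, a gene of acyl-CoA synthesis, overlaps THUMPD1 and had 2.39 to 3.78 FPKM in the 4 libraries, and the counting is not stated to have used strand.

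Among the box C/D genes, FBL, on chr19:39834458-39846379, had 130 FPKM in RIP SW480, 47.6 in Input SW480, 84.1 in RIP DLD-1 and 60.7 in Input DLD-1. NOP56, on chr20:2652632-2658393, had 34.6, 58.7, 47.0 and 38.1 FPKM in the same order. NOP58, on chr2:202265763-202303661, had 56.3, 34.4, 40.3 and 34.9 FPKM. For FBL and NOP58 both RIP values were above both Inputs, whereas for NOP56 the highest value was Input SW480 and the lowest RIP SW480.

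Among the box H/ACA genes, DKC1, on chrX:154762864-154777689, had 52.2 FPKM in RIP SW480, 32.4 in Input SW480, 30.6 in RIP DLD-1 and 44.7 in Input DLD-1. NHP2, on chr5:178149463-178153885, had 73.1, 46.7, 61.9 and 35.5 FPKM in the same order. The values of DKC1 overlapped between RIP and Input, and those of NHP2 did not. RMND5B overlaps NHP2 and had 8.12, 16.5, 8.36 and 20.2 FPKM in the same order, and a pseudogene of NHP2 is treated below. NOP10, on chr15:34341719-34343136, the smallest of the 9 genes with a span of 1418 bases, had 88.6, 79.3, 106 and 104 FPKM. GAR1, on chr4:109815510-109824737, had 24.5, 6.37, 12.8 and 5.81 FPKM. NOP10 differed little between the libraries of one label, while GAR1 was above both Inputs in each RIP library although it was among the least abundant of the genes in Input.

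**Figure D1:**
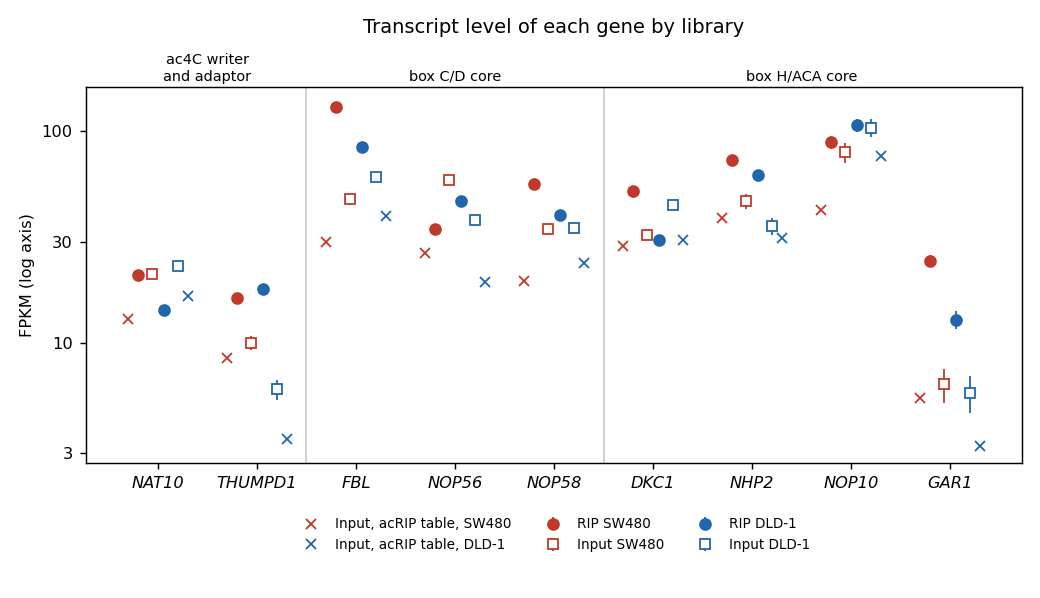
FPKM of each gene (log axis) in the RIP libraries (filled circles), the Inputs of the RIP table (open squares) and the Inputs of the acRIP table (crosses), with SW480 labels in red and DLD-1 labels in blue. Bars are 95% counting intervals without replicates, and GAR1, THUMPD1, FBL, NOP58 and NHP2 have both RIP circles above both squares.

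The order of the levels was alike in the Inputs at its ends. NOP10 was highest in both, and THUMPD1 and GAR1 were lowest in both. In Input SW480 the order was NOP10, NOP56, FBL, NHP2, NOP58, DKC1, NAT10, THUMPD1 and GAR1, in which FBL and NHP2, and NOP58 and DKC1, did not differ beyond counting error. In Input DLD-1 it was NOP10, FBL, DKC1, NOP56, NHP2, NOP58, NAT10, THUMPD1 and GAR1, in which NOP56 and NHP2, NHP2 and NOP58, and THUMPD1 and GAR1 did not. FBL led RIP SW480 and NOP10 led RIP DLD-1, in which NAT10 and GAR1 were within counting error. Against the 10350 protein-coding genes with at least 1 FPKM in both Inputs, NAT10 stood at the percentiles 75.6 and 76.9 of Input SW480 and DLD-1, FBL at 91.0 and 93.8, and NOP10 at 95.7 in Input SW480. THUMPD1 stood at 50.1 and 31.1, and GAR1 at 34.4 and 30.1.

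Subsequently, the Inputs were compared with each other. None of the 9 genes was at least 2-fold higher or lower in Input SW480 than in Input DLD-1, where 7.25% of the 12324 genes with an Input of at least 1 FPKM in both labels were higher and 9.29% lower. THUMPD1 had the greatest difference, with a log2 of 0.65 on the log2(FPKM + 1) scale and a 95% counting interval of 0.48 to 0.82. NOP56 followed with 0.61 (0.52 to 0.70), and DKC1 was lower in Input SW480 with -0.45 (-0.55 to -0.36). The intervals are without replicates and cover counting error only. The acRIP-seq part of the deposit holds its own values for both Inputs. The labels name 1 Input per line, so whether both sets of values come from 1 library cannot be told. There THUMPD1 had 8.44 FPKM in Input SW480 and 3.51 in Input DLD-1, a log2 of 1.07, and was the only one of the 9 past 2-fold. Of all genes 9.52% were higher there and 9.60% lower. NOP10 had 42.5 and 76.6 FPKM there, a log2 of -0.84, and GAR1 had 5.46 and 3.25, a log2 of 0.60 against 0.11 (-0.22 to 0.45) in the RIP table. NAT10 had 12.96 and 16.6 FPKM, a log2 of -0.33 against -0.11 in the RIP table.

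Between the RIP libraries none of the 9 genes differed by 2-fold either, with 7.60% of all genes higher and 6.17% lower in RIP SW480. GAR1 was higher in RIP SW480 than in RIP DLD-1 by a log2 of 0.88 (0.72 to 1.04), DKC1 by 0.75 (0.68 to 0.82), FBL by 0.63 (0.56 to 0.69) and NAT10 by 0.51 (0.42 to 0.60). NOP56 was lower in RIP SW480, with a log2 of -0.43 (-0.50 to -0.36). For 6 of the 9 genes (NAT10, THUMPD1, FBL, NOP56, NOP58 and DKC1) the label with the higher RIP level was not the label with the higher Input level. The same held for 74.0% of all genes compared, and for 66.7% of the 9.

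In the comparison of RIP with Input, GAR1 stood highest of the 9 genes in SW480 and second to THUMPD1 in DLD-1. Its log2((RIP + 1) / (Input + 1)) was 1.79 in SW480 (95% counting interval 1.54 to 2.03) and 1.02 in DLD-1 (0.74 to 1.30). Of the 9 genes, FBL and GAR1 were at least 2-fold higher in RIP SW480 than in Input SW480, where 15.6% of all genes were. THUMPD1 and GAR1 were in RIP DLD-1 against Input DLD-1, where 15.1% were, so that 2 of 9 in each label was near the share of all genes. GAR1 was past 2-fold in both labels, as were 3.55% of all genes. None was at least 2-fold lower in SW480, against 16.0% of all genes, or in DLD-1, against 19.2%. All 9 genes are protein-coding, and of protein-coding genes alone 9.17% and 12.8% were lower. The 9 genes had a median log2 of 0.65 with SW480 labels and of 0.29 with DLD-1 labels, beside 0.05 and -0.05 over all genes. Over protein-coding genes alone the medians were 0.18 and 0.07.

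With the Inputs crossed between labels, GAR1 had 1.90 (1.64 to 2.16) in RIP SW480 and 0.91 (0.64 to 1.17) in RIP DLD-1. Past 2-fold in RIP SW480 over Input DLD-1 were THUMPD1, FBL, NHP2 and GAR1, 4 of 9, against 9.24% of all genes. In RIP DLD-1 over Input SW480 there were 0 of 9, against 9.36%. None was past 2-fold in both of these crossed pairings, as 5.59% of all genes were. None was lower by 2-fold either, against 11.7% in RIP SW480 and 11.8% in RIP DLD-1. Of protein-coding genes alone 3.93% and 4.51% were lower. GAR1 rested on 114 and 96 reads at least in Input SW480 and Input DLD-1, the fewest of the 9.

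The mRNA of the writer was not enriched in the NAT10 precipitate over these Inputs, and the protein was not measured here. NAT10 had a log2 RIP/Input of -0.03 in SW480 (-0.12 to 0.07) and -0.65 in DLD-1 (-0.76 to -0.55). Over the other label it had -0.14 (-0.24 to -0.05) and -0.54 (-0.64 to -0.43). Among protein-coding genes its same-label ratios lay at the percentiles 40.6 and 21.6.

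THUMPD1 had a log2 RIP/Input of 0.65 in SW480 (0.53 to 0.77) and 1.43 in DLD-1 (1.28 to 1.58). Over the other label it had 1.30 (1.16 to 1.45) in RIP SW480 and 0.78 (0.66 to 0.90) in RIP DLD-1. Its higher ratio stood in each case over Input DLD-1, which held less THUMPD1 than Input SW480, and its RIP levels were 16.3 and 17.9 FPKM.

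Of the box C/D genes, FBL had a log2 RIP/Input of 1.43 in SW480 (1.34 to 1.53) and 0.46 in DLD-1 (0.37 to 0.56), and 1.09 and 0.81 over the other label. NOP58 had 0.69 (0.60 to 0.79) and 0.20 (0.10 to 0.31), and 0.67 and 0.22 over the other label. FBL and NOP58 were thus above 0 in all 4 pairings, and higher in RIP SW480 in each. NOP56 had -0.75 in SW480 (-0.82 to -0.67) and 0.29 in DLD-1 (0.21 to 0.38), but -0.14 (-0.22 to -0.05) and -0.32 (-0.39 to -0.24) over the other label. Over these RIP-table Inputs, the 2 scaffold genes of the same particle therefore had opposite signs in 3 of the 4 pairings. They had the same sign in RIP DLD-1 over Input DLD-1. Over the acRIP-table Inputs, treated below, their signs were opposite only in RIP SW480 over the same label. There NOP56 had -0.19 and NOP58 had 0.94.

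Of the box H/ACA genes, NHP2 had a log2 RIP/Input of 0.64 in SW480 (0.51 to 0.77) and 0.78 in DLD-1 (0.63 to 0.94), and 1.02 and 0.40 over the other label. DKC1 had 0.67 (0.59 to 0.75) and -0.53 (-0.62 to -0.45), and 0.22 and -0.08 over the other label. DKC1 went in opposite directions in the 2 labels, and less far apart over the Inputs of the other label. NOP10 had 0.16 (-0.03 to 0.35) and 0.03 (-0.14 to 0.21), which were within counting error of 0, and -0.23 and 0.42 over the other label. Over these RIP-table Inputs, the particle's 4 genes thus ranged from DKC1 and NOP10, with values on both sides of 0, to GAR1, at 0.91 or more.

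**Figure D2:**
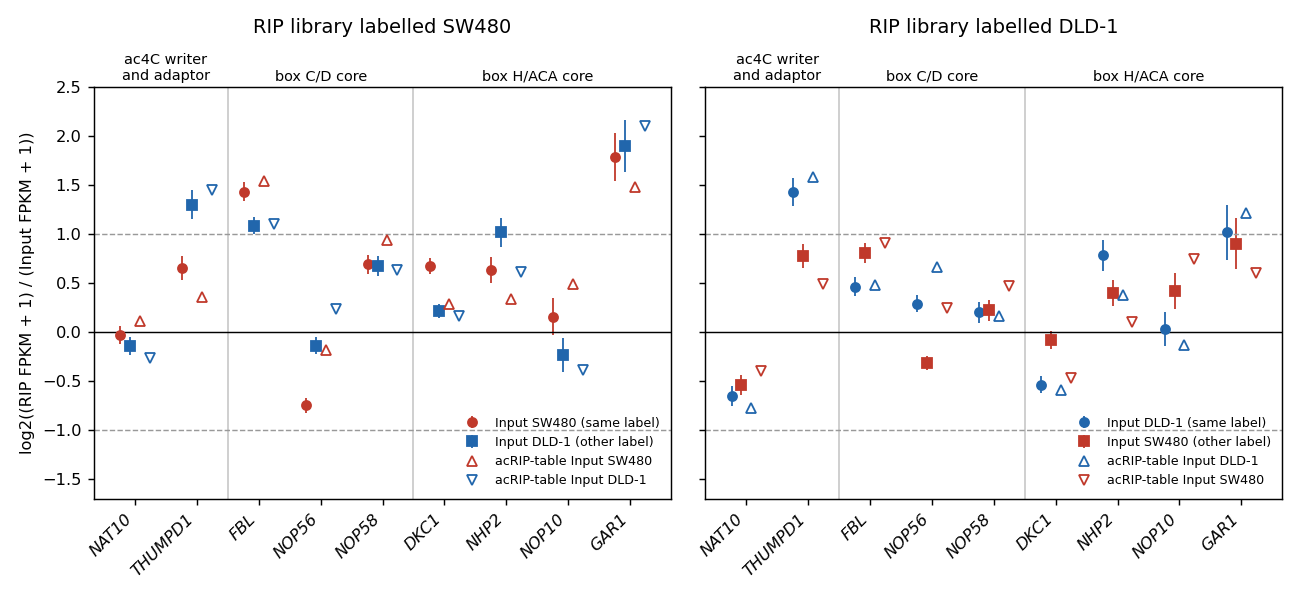
Log2((RIP FPKM + 1) / (Input FPKM + 1)) of each gene over 4 Inputs, for RIP SW480 (left) and RIP DLD-1 (right), with the label of the Input by colour. Filled points have 95% counting intervals, open triangles are ratios over acRIP-table Inputs brought to the RIP-table median, and dashed lines mark 2-fold. GAR1, THUMPD1, FBL, NOP58 and NHP2 lie above 0 over every Input, and NAT10, NOP56, DKC1 and NOP10 lie on both sides of it.

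The Inputs of the acRIP table, brought to the median of the RIP-table Inputs over protein-coding genes, gave a further reading. GAR1 had 1.49 in SW480 and 1.22 in DLD-1 over the same label, THUMPD1 0.36 and 1.58, and FBL 1.54 and 0.48. NAT10 had 0.11 and -0.77 there. NOP56 had -0.19 and 0.67, and DKC1 0.29 and -0.59, so that each again had opposite signs in the 2 labels. With these Inputs crossed between labels, NOP56 had 0.23 and 0.25 and DKC1 had 0.16 and -0.46, so that NOP56 no longer did.

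Processed pseudogenes of the 9 genes were near or at 0, except NHP2P1. This copy of NHP2 had 15.1 FPKM in Input SW480 and 3.37 in Input DLD-1, but 0.292 in RIP SW480 and 0 in RIP DLD-1. In the Inputs of the acRIP table it had 1.57 and 0.2001 FPKM. Reads can be split between such copies, so the NHP2 ratio is uncertain to that extent. With the pair summed, log2 RIP/Input was 0.25 in SW480 and 0.66 in DLD-1 in place of 0.64 and 0.78. The sums were 73.4 FPKM in RIP SW480, 61.8 in Input SW480, 61.9 in RIP DLD-1 and 38.9 in Input DLD-1. RIP DLD-1 and Input SW480 were thus nearly equal, and RIP SW480 was less than 2-fold above Input DLD-1.

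Several of the genes carry small RNA genes in their introns. By RefSeq, NOP56 holds SNORD110, SNORA51, SNORD86, SNORD56, SNORD57 and MIR1292, NOP58 holds SNORD70, SNORD70B, SNORD11B and SNORD11, and DKC1 holds SNORA36A, SNORA56 and MIR664B. All small RNA genes in NOP56 and DKC1 were listed at 0 in the 4 RIP-table libraries and in the acRIP-table Inputs. In NOP58, SNORD11 had 20.4 FPKM in Input SW480 and 14.99 in Input DLD-1, and 0.804 in RIP SW480 and 0 in RIP DLD-1. SNORD11B had 1.52 and 26.3 FPKM in the same Inputs and was listed at 0 in both RIP libraries, whereas SNORD70 had 4.06 FPKM in RIP DLD-1 and at most 0.777 in the others. By FPKM alone, SNORD11 and SNORD11B thus stood higher in the RIP-table Inputs, where their host NOP58 was lower than in RIP. In the acRIP-table Inputs SNORD11 was detected with both labels, whereas SNORD11B was listed at 0 in Input SW480 and detected in Input DLD-1. No reads or counting intervals are given for these short genes, so their contrast with the host is uncertain.

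Which of these mRNAs had ac4C peaks was asked next. All 9 had a peak in SW480 and all 9 in DLD-1, where 44.2% and 48.8% of the 12324 genes did. Peaks in both lines were found in 34.4% of the 12324, and in 50.7% of the 6844 protein-coding genes with at least 5 FPKM in both Inputs, a level that all 9 genes had. The 9 genes held 16 of 9536 peaks in SW480 and 25 of 13964 in DLD-1. This came to a mean of 1.78 and 2.78 peaks a gene, beside 0.918 and 1.48 over those 6844 genes. Beyond the filter of 5 FPKM, those genes were not matched to the 9 by level or by length. In the list called on the pooled libraries all 9 again had a peak, against 55.2% of genes, with 24 peaks in all.

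By the annotation in the lists, 6 of 16 in SW480 were in the 3′UTR, 5 in coding sequence and 5 in exons of no named part. In DLD-1 these were 10, 8 and 6 of 25, and 1 was in the 5′UTR of GAR1. The median fold of acRIP over Input was 19.95 in SW480 and 18.9 in DLD-1, beside 19.5 and 14.6 over all peaks. Of the 16 peaks in SW480, 11 overlapped a DLD-1 peak on the same strand, and 10 of the 25 DLD-1 peaks overlapped one in SW480. THUMPD1 was the only one of the 9 with no such overlap.

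NAT10 had 3 peaks in SW480 and 6 in DLD-1. The shared one lay at its 3′ end, at chr11:34146671-34146850 (17.0-fold) in SW480 and chr11:34146552-34146850 (18.4-fold) in DLD-1, 58 bases before the annotated end. The highest was in DLD-1, 113-fold at chr11:34142245-34146313 in 3 blocks, at the percentile 95.3 of that list. Coding peaks of 27.1-fold and 8.33-fold in SW480 lay towards the 3′ end, and none of them overlapped the 4 coding peaks in DLD-1, of 6.29-fold to 32.8-fold. The transcript of the writer thus carried peaks along most of its length in DLD-1 and in its last part in SW480.

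THUMPD1 had 1 peak in SW480, 13.5-fold at chr16:20735670-20735849, and 2 in DLD-1, 4.33-fold at chr16:20735011-20735161 and 8.65-fold at chr16:20734262-20734412. All 3 lay in the 3′UTR. Their deposited p-values were 0.00063, 0.0018 and 0.010, and the last of these was the largest among the peaks of the 9 genes.

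In the box C/D genes, the single FBL peak was shared almost base for base, at chr19:39839072-39840307 (39.0-fold) in SW480 and chr19:39839072-39840423 (10.1-fold) in DLD-1, across an exon junction. NOP58 shared its 3′ peak, at chr2:202300089-202303606 (23.9-fold) in SW480 and chr2:202300119-202303606 (13.7-fold) in DLD-1. NOP56 shared its 3′ end too, at chr20:2657853-2658363 (10.2-fold) and chr20:2657943-2658393 (8.26-fold).

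Of the other NOP56 peaks, 4 overlapped snoRNA genes. In DLD-1, the 45.6-fold peak at chr20:2655904-2656324 covered all 86 bases of SNORD86, and the 93.6-fold peak at chr20:2656744-2657344 all 72 bases of SNORD57. In SW480, a 3.25-fold peak at chr20:2654886-2655185 covered 89 bases of SNORA51, and a 3.99-fold peak at chr20:2656804-2656954 covered 16 bases of SNORD57. The remaining ones had no base on a snoRNA gene. They were a 7.29-fold peak at chr20:2657074-2657254 in SW480, and peaks of 21.2-fold at chr20:2655695-2655844 and 18.9-fold at chr20:2656384-2656534 in DLD-1. No peak of NOP58 or DKC1 in either line covered a nested small RNA gene. In the 4 that did overlap, signal of the snoRNAs and of the host transcript cannot be told apart.

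In the box H/ACA genes the 3′ ends held the highest peaks. NHP2 had 275-fold at chr5:178149490-178150685 in SW480 and 142-fold at chr5:178149490-178150714 in DLD-1, at the percentiles 96.4 and 96.6 of the lists. RMND5B, a ubiquitin ligase gene on the opposite strand, overlaps this end, and its own peaks of 273-fold and 493-fold shared 349 bases with those of NHP2. The gene from which this signal came cannot be told apart without the strand of the reads. A second NHP2 peak, of 15.5-fold at the 5′ end, was found in DLD-1.

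GAR1 had 164-fold at chr4:109824030-109824710 in SW480 and 51.1-fold at chr4:109824030-109824681 in DLD-1, both in the 3′UTR, and a shared coding peak of 22.9-fold and 9.44-fold. DKC1 shared its 3′UTR peak, at chrX:154777302-154777540 (43.7-fold) in SW480 and chrX:154777182-154777510 (83.4-fold) in DLD-1, which had 3 more, of 6.03-fold to 37.0-fold. NOP10 had 1 peak in each line, 37.6-fold at chr15:34341859-34342091 in SW480 and 36.1-fold at chr15:34341771-34343119 in DLD-1, and the DLD-1 peak covered all 233 bases of the other.

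**Figure D3:**
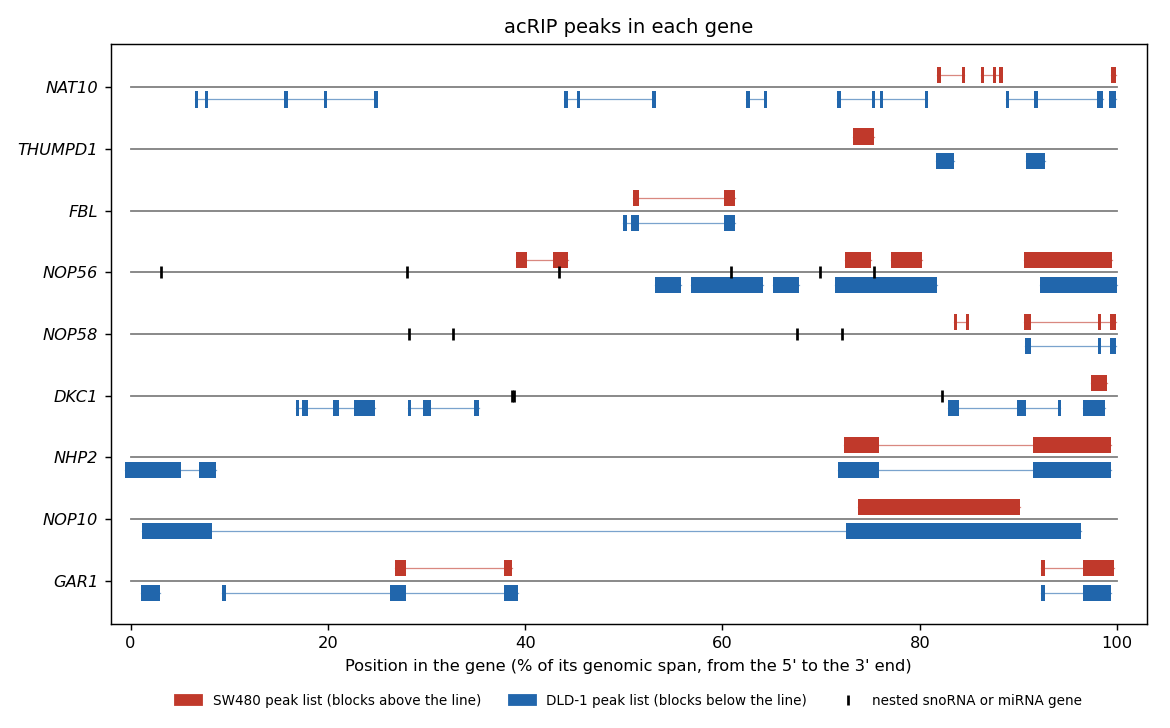
Blocks of the acRIP peaks in each gene, placed in % of its genomic span from the 5′ to the 3′ end, for SW480 (red, above the line) and DLD-1 (blue, below it). Thin lines join blocks of 1 peak and black ticks mark nested snoRNA and miRNA genes. Of the 16 SW480 and 25 DLD-1 peaks, those at the 3′ end coincide between lines in NAT10, NOP56, NOP58, DKC1, NHP2 and GAR1.

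**Figure D4:**
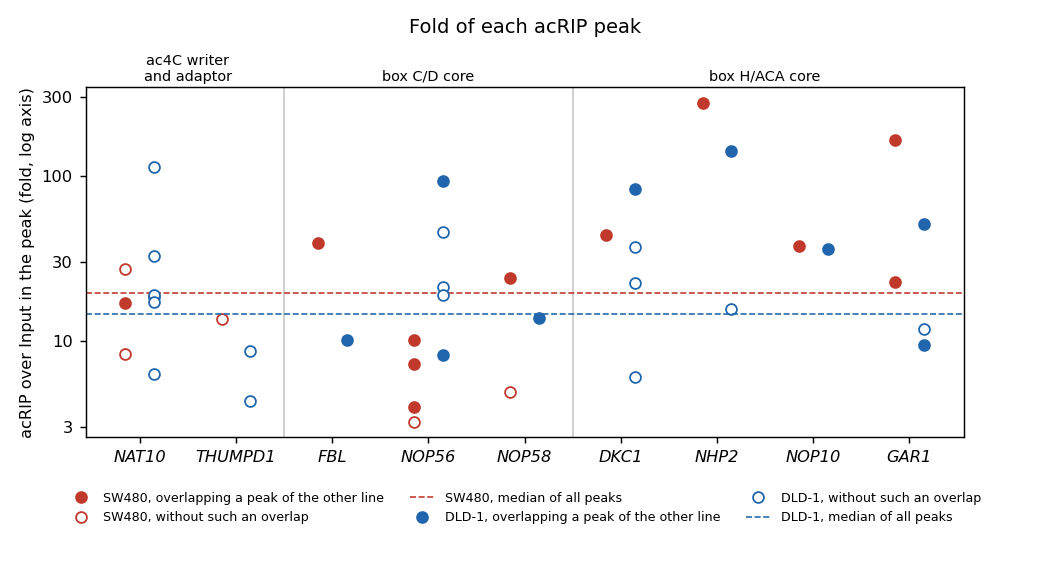
Fold of acRIP over Input (log axis) for each peak of the 9 genes, in SW480 (red) and DLD-1 (blue). Filled points overlap a peak of the other line, open points do not, and dashed lines are the medians of all peaks, 19.5 and 14.6. NHP2 reaches 275-fold and GAR1 164-fold in SW480, and the 3 THUMPD1 peaks lie below both medians.

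The peak lists also count sites of the ac4C pattern, a motif of evenly spaced Cs (CNNCNNCNNCNN, with N for any base). Of the peaks of the 9 genes, 5 of 16 in SW480 and 13 of 25 in DLD-1 held a site, beside 56.2% and 55.1% of all peaks. NHP2 had 4 sites in SW480 and 5 in DLD-1, NAT10 had 2 and 4, and FBL and NOP10 had 1 in each line. In DLD-1 alone, NOP56 had 5, DKC1 had 3 and THUMPD1 had 2. The positions of the sites were not compared between lines, because 3 of 8 in SW480 and 4 of 21 in DLD-1 are listed outside the blocks of their peaks. No site was listed for NOP58 or GAR1 in either line, although GAR1 had peaks of up to 164-fold.

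A sequence feature that part of the genes shared was the E-box CACGTG, the motif bound by MYC and related factors, which reads the same on both strands. It was chosen with these sequences in view. RefSeq windows on GRCh38.p14, of 250 bases before to 50 after the start, were found for 8 of the 9 genes, and NOP58 was not matched. The motif stood in the windows of NAT10, FBL, NOP10 and GAR1, 4 of 8 genes, shown here 5′ to 3′ on the strand of each gene with the motif in capitals because it is what these genes had in common.
NAT10: tgcgcttgcgCACGTGctgtctacca
FBL: cgctcttttcCACGTGcgaaagcccc
NOP10: aattgacgaaCACGTGacgcggtcgg
GAR1: gccagaggggCACGTGgcgccggtga
The stretches lie at chr11:34105604-34105629 (plus strand), chr19:39846358-39846383 (minus), chr15:34343132-34343157 (minus) and chr4:109815783-109815808 (plus, beside a second annotated start). The motif began 15 bases before the start in NAT10 and 11 before it in NOP10, and 6 bases after it in FBL and 31 after it in GAR1. NOP10 had a second copy 170 bases before its start. It was in 7.26% of all windows of this length, and by gene in 8.77% of all genes and in 13.2% of protein-coding genes with at least 1 FPKM in both Inputs. For THUMPD1, NOP56, DKC1 and NHP2 these letters were not in the window. FBL and GAR1 were among the genes past 2-fold in RIP SW480, and NAT10 and NOP10 were not.

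For comparison, 3 lists of other genes of the same pathways were read against the shares of all genes, 15.6% higher and 16.0% lower in SW480 and 15.1% and 19.2% in DLD-1. Among protein-coding genes these shares were 17.4% and 9.17% in SW480 and 16.7% and 12.8% in DLD-1. Assembly factors of snoRNPs, of which all 14 passed the filter, had 2 genes at least 2-fold higher in RIP in SW480 and 0 in DLD-1, and none lower. NAF1, which loads DKC1 onto nascent box H/ACA RNA before GAR1 replaces it, had the highest mean, with a log2 RIP/Input of 1.27 in SW480 and 0.73 in DLD-1, and 0.94 and 1.06 over the other label. RUVBL2, an ATPase of the assembly chaperone, had the lowest, with -0.10 and -0.67, and -0.46 and -0.31 over the other label. Over the acRIP-table Inputs RUVBL2 had 0.61 and -0.12 with the same label, and 0.08 and 0.41 with the other label. The median of the list was 0.33 in SW480 and 0.21 in DLD-1, beside 0.05 and -0.05 over all genes and 0.18 and 0.07 over protein-coding genes.

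The rRNA base modifying enzymes had 4 of 10 rows at least 2-fold higher in SW480 and 1 in DLD-1, with 0 and 2 lower. With the Inputs crossed between labels, 2 were higher in RIP SW480 and 3 in RIP DLD-1, and 1 was lower in each. TRMT112, the activator of rRNA and tRNA methyltransferases, had 69.2 FPKM in RIP SW480, 20.7 in Input SW480, 55.5 in RIP DLD-1 and 30.5 in Input DLD-1, a log2 RIP/Input of 1.70 and 0.84. EMG1, a pseudouridine methyltransferase, was the lowest through 1 of its 2 rows, with -0.76 and -1.51 at no more than 1.84 FPKM. Its other row was below the Input filter and had 1.54 and 0.85, but -0.61 and -1.42 over the acRIP-table Inputs. Neither row therefore gives EMG1 a direction. The list's median was 0.36 in SW480 and -0.03 in DLD-1.

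Of the small subunit processome and early nucleolar proteins 31 of 32 passed the filter. At least 2-fold higher were 1 in SW480 and 2 in DLD-1, and 0 and 1 were lower, with medians of 0.04 and 0.13. IMP3, a protein that joins the U3 snoRNA to its rRNA, had 15.4 FPKM in RIP SW480, 1.25 in Input SW480, 22.6 in RIP DLD-1 and 3.36 in Input DLD-1. Its log2 was 2.87 and 2.44, but 0.70 and 0.49 over the acRIP-table Inputs, where it had 6.13 and 10.4 FPKM. Over the other label it had 1.91 and 3.39 with the RIP-table Inputs, and -0.04 and 1.23 with the acRIP-table Inputs. DHX37, the helicase that releases U3, had the lowest mean of both ratios, with -0.32 and -0.73. Lower values within 1 label were -0.80 for NGDN in SW480 and -1.02 for AATF in DLD-1. By gene, the E-box was in 46.7% of the windows of this list, in 20.0% of the modifying enzymes and in none of the 8 assembly factors matched.

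**Figure D5:**
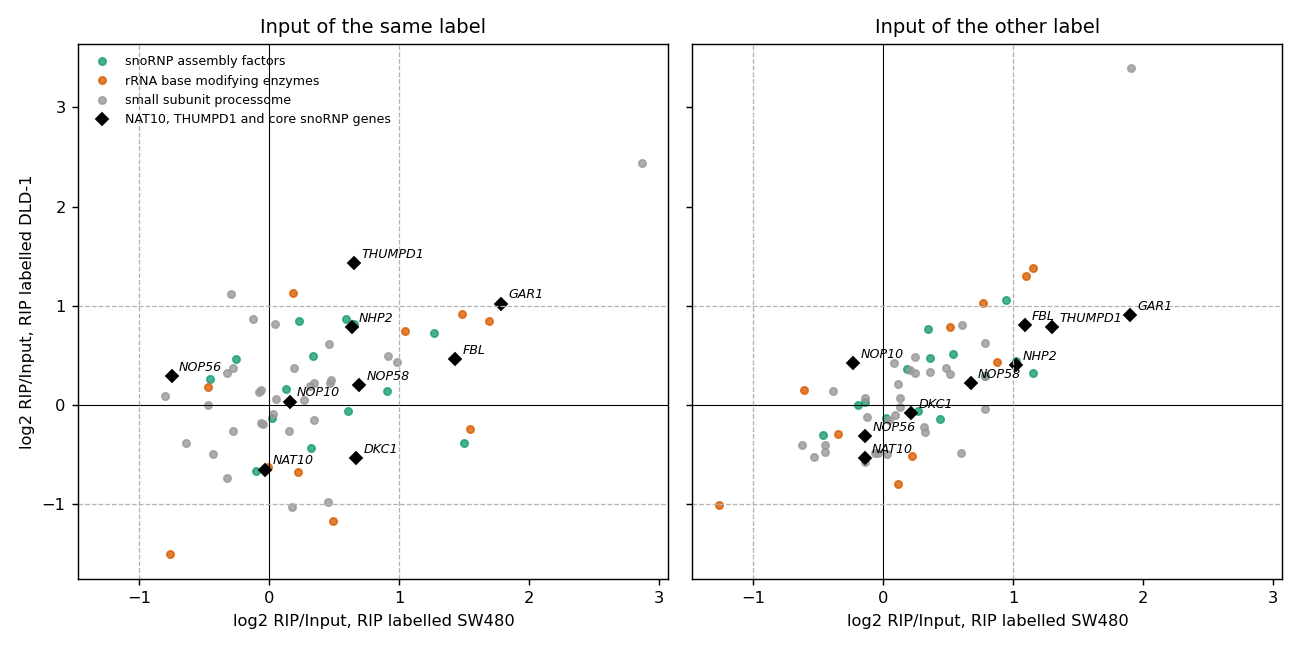
Log2 RIP/Input of RIP SW480 (x axis) against RIP DLD-1 (y axis), over the Input of the same label (left) and of the other label (right). Black diamonds are the 9 genes, coloured points the genes of the 3 lists, and dashed lines mark 2-fold. On the left GAR1 is the only diamond past 2-fold on both axes, and NOP56 and DKC1 lie in the quadrants of opposite sign.

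Lastly, the genes of most similar pattern to NAT10 and THUMPD1 were found by the Euclidean distance of log2(FPKM + 1) over the 4 RIP-table libraries after subtracting each gene's mean. Nearest to NAT10 were VPS16 (distance 0.03), HAGHL (0.04) and USP42 (0.04), where the median over all protein-coding genes compared was 0.91. VPS16 had 6.12 FPKM in RIP SW480, 6.39 in Input SW480, 3.98 in RIP DLD-1 and 6.79 in Input DLD-1, the same order as NAT10. Nearest to THUMPD1 were ACYP1 (0.03), ATOX1 (0.06) and ATF7 (0.07), with a median of 1.26. None of the other 8 genes was among the 3 nearest to NAT10 or to THUMPD1.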

How the data were processed

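Total RNA, NAT10 RIP and acRIP libraries of SW480 and DLD-1 were sequenced, 1 library per group in 6 groups. The authors deposited FPKM values for the RIP-seq libraries, and a second table of Input values read here as FPKM. Their processing notes name cutadapt 2.5 and HISAT2 2.1.0, and coordinates are on GRCh38. The counting tool, strand setting and peak caller are not given in the sources used here. The study's text speaks of IgG, whereas labels and table name Input. By column, the deposited peak lists give a p-value (headed score) and log10 of p and of the FDR. They also give a fold ratio over Input and a count of motif sites. Starts were moved by 1 base to count from 1. The authors' own RIP/Input ratio columns were not used.

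The ratio computed was log2((RIP + 1) / (Input + 1)), with a pseudocount of 1 FPKM that shrinks the ratio of low genes, over genes with at least 1 FPKM in both Inputs, and genes were called at 2-fold. Whole reads were recovered from the FPKM steps for 23507 of 23515 genes above 0 in at least 2 libraries, after a test on simulated data. They are the smallest possible reads, so the part of the error that comes from the number of reads is at most the value given. PCR copies are not independent molecules, so the real error can be larger. Intervals cover counting error only. The depth behind the acRIP-table Inputs was not solved. Peaks were shared at 1 overlapping base on 1 strand. The 9 genes, the lists and the rule for named genes were chosen with earlier results of these data known. Genes named beyond the 9 are the highest and lowest of each list by the mean of both ratios, pseudogenes, nested small RNA genes, and the 3 nearest in pattern to NAT10 and THUMPD1. Alternatives changed the pseudocount, filter, fold, centring, Input, peak threshold and overlap. Python 3.11.15 was used.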

Additional observations from a re-analysis of the deposited data

Results flagged for a closer look

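NOP56 had a log2 RIP/Input of -0.75 in SW480 and 0.29 in DLD-1, a difference of -1.04 between labels with opposite directions. DKC1 had 0.67 and -0.53, a difference of 1.21. The median of the rRNA base modifying enzymes was 0.36 and -0.03, a difference of 0.38. With 1 library per group none of these differences was tested. Over the Inputs of the other label NOP56 had -0.14 and -0.32 and DKC1 had 0.22 and -0.08, and the part of the labels in the differences was not tested.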

How the results depend on the processing

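No paired analysis was possible because each group held 1 library. For SW480, 2 of the 9 genes were at least 2-fold higher in RIP, and 4 were over the other label's Input and 6 at a 1.5-fold threshold. At 1.5-fold 1 was lower in SW480 and 1 in DLD-1, in place of 0. For DLD-1, the 2 genes higher became 1 after centring on protein-coding genes, and 0 over the other label's Input in either table. Of the 3 pathway lists, 7 genes were higher in SW480, or 4 with an Input of at least 5 FPKM. The 0 that were lower in SW480 became 1 with a pseudocount of 0.1, with none, over the other label's Input and over the acRIP-table Input of the same label, and 3 over that of the other label. In DLD-1 the 3 higher became 5 with a pseudocount of 0.1, 6 with none, 5 over the other label's Input, 7 over the acRIP-table Input of the opposite label and 1 with an Input of at least 5 FPKM. The 3 lower became 1 over the other label's Input in either table. All 9 genes kept a peak in both lines at an FDR under 0.05, and 8 did below the median p of each list. Of the shared peaks 9 in each list overlapped by 50% of both peaks, and the other counts changed by no more than 1.5 times. The 18 ratios of the 9 genes changed sign in 2 cases over the other label's Input (NOP10 in SW480 and NOP56 in DLD-1) in 2 cases under each other Input and under centring, and in 0 with another pseudocount. Their causes were not tested. Depth limits GAR1 most, with at least 96 to 114 reads in the Inputs.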
